A study of Homo sapiens with 24 samples.

Results

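The genes of cholesterol and fatty acid synthesis were followed through 24 two-colour expression arrays of human cancer cell lines. A gene was a member when its symbol was on a fixed list of 35, out of 24312 named genes on the first array design and 26019 on the second. The list held 7 genes of the mevalonate steps, 11 of the sterol steps, 8 of fatty acid synthesis and desaturation, 5 regulators, 1 sterol transfer gene and 3 targets of the liver X receptors (LXR). All 35 members had a probe on both designs, and the array annotation carried SC4MOL and SC5DL by those older symbols.

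Each array set RNA of a treated culture, labelled with Cy5, against RNA of a control culture of the same line, labelled with Cy3. The value of a gene is its log2 ratio, treated over control, so 1 stands for a doubling and -1 for a halving of the signal. Each treatment was hybridised once per line, so the error printed beside a single value is that of the scanner software for the spot and holds no spread between cultures. No array had its dyes swapped, so a probe that favours a dye and a gene that responds to every treatment cannot be told apart.

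The lines were PC3, DU145 and LNCap (prostate cancer), A498 and 786O (renal cell carcinoma), and FaDu and SAS (head and neck squamous cell carcinoma). On the first design, 16 arrays covered genistein in PC3 and DU145, si-CAV2 in A498 and 786O, miR-145 in PC3, DU145 and LNCap, miR-375 in FaDu, si-LAMB3 in FaDu and SAS, wogonin in SAS and FaDu, miR-23b, miR-24 and miR-27b in PC3, and miR-29a in SAS. On the second design, 8 arrays covered miR-143 and si-GOLM1 in DU145 and PC3, miR-27b in 786O and A498, and CXCL10 in 786O for 12 h and 24 h. The siRNA cultures were set against control siRNA, the miRNA cultures against control miRNA, wogonin against DMSO and CXCL10 against no treatment. Genistein, a soy isoflavone, was given at 25 µM for 4 days, with a control that the labels call untreated and the methods describe as vehicle. Wogonin is a plant flavone and CXCL10 a chemokine, and the doses of both are not given in the sources used here. Each line is a single established culture, and lines rather than repeated cultures stand for n wherever a mean over lines is given.

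Cells make cholesterol from acetyl-CoA through mevalonate, squalene and lanosterol, and they make fatty acids from the same acetyl-CoA through malonyl-CoA. Both routes are switched on by the SREBP transcription factors (encoded by SREBF1 and SREBF2), which SCAP carries from the endoplasmic reticulum to the Golgi to be cut and released when sterols are scarce. INSIG1 and INSIG2 hold SCAP back when sterols are plentiful. The LXR receptors, which sense oxidised sterols, turn on the exporters ABCA1 and ABCG1 and the ubiquitin ligase MYLIP. Tumour lines of prostate, kidney and squamous epithelium are known to run these routes at different rates.

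The 7 miRNAs that were transfected are shown by their mature sequences because the members moved very differently under them. The labels do not say which arm was used, so the arm that is usually meant is printed, with the seed (bases 2 to 8) in capitals, from RefSeq on GRCh38.p14. No seed was shared between these 7.
miR-24-3p: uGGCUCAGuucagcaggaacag
miR-23b-3p: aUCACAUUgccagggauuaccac
miR-27b-3p: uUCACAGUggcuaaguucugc
miR-29a-3p: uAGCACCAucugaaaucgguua
miR-375-3p: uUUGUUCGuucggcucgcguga
miR-145-5p: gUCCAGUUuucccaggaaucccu
miR-143-3p: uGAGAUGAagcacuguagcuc
miR-23b, miR-27b and one copy of miR-24 lie close together on the plus strand, at chr9:95085265-95085287, chr9:95085505-95085525 and chr9:95086064-95086085. The other copy of miR-24 is at chr19:13836289-13836310 on the minus strand. miR-143 and miR-145 are neighbours too, at chr5:149428978-149428998 and chr5:149430661-149430683 on the plus strand, while miR-29a is at chr7:130876748-130876769 and miR-375 at chr2:219001648-219001669, both on the minus strand.

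No spot was saturated, the Cy3 signal passed background clearly in 53.2% to 67.6% of spots, and the array medians over all genes lay between -0.10 and 0.08. The silenced genes were low on their own arrays, with log2 ratios of -3.80 and -3.20 for CAV2, -3.02 and -4.15 for GOLM1, and -2.50 in FaDu but -0.89 in SAS for LAMB3, where other arrays reached -2.11. Line markers mostly matched the labels: PAX8 was high in A498 and 786O, and TP63 and KRT5 were seen in FaDu and SAS alone among the lines. The level of the mesenchymal marker VIM in PC3 was 6.04 to 6.77 (log2 control signal over the array's 75th percentile) on the first design and 2.39 to 2.99 on the second, while DU145 had 6.03 to 7.25 and 7.04 to 7.20, so the PC3 cultures of the second design stood apart. The control channels of the miR-23b, miR-24 and miR-27b arrays of PC3 differed from each other with an SD of 0.205 to 0.222 on the log2 scale, against 0.594 to 0.722 for 7 other pairs of PC3 control channels. These 3 arrays may share their control RNA, which the labels do not say, so their values are given side by side and not compared.

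A member was counted as high or low in a treatment when its log2 ratio was past 0.5 or -0.5 in every line of that treatment, and each count is set beside the percentage of all measured genes that met the same limit. On the first design 189 of 557 member values (33.9%) were past the limit in either direction, beside 32.3% of the values of all genes, and 55 (9.87%) were past 1.0, beside 12.3%. The members were thus past the limit about as often as other genes there. On the second design 14 of 275 (5.09%) were past 0.5, beside 10.2%, and 1 was past 1.0, beside 2.64%. The median of the members was below 0 on 15 of the 16 arrays of the first design, where it ran from -0.66 to 0.31, and between -0.03 and 0.04 on the second.

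**Figure D1:**
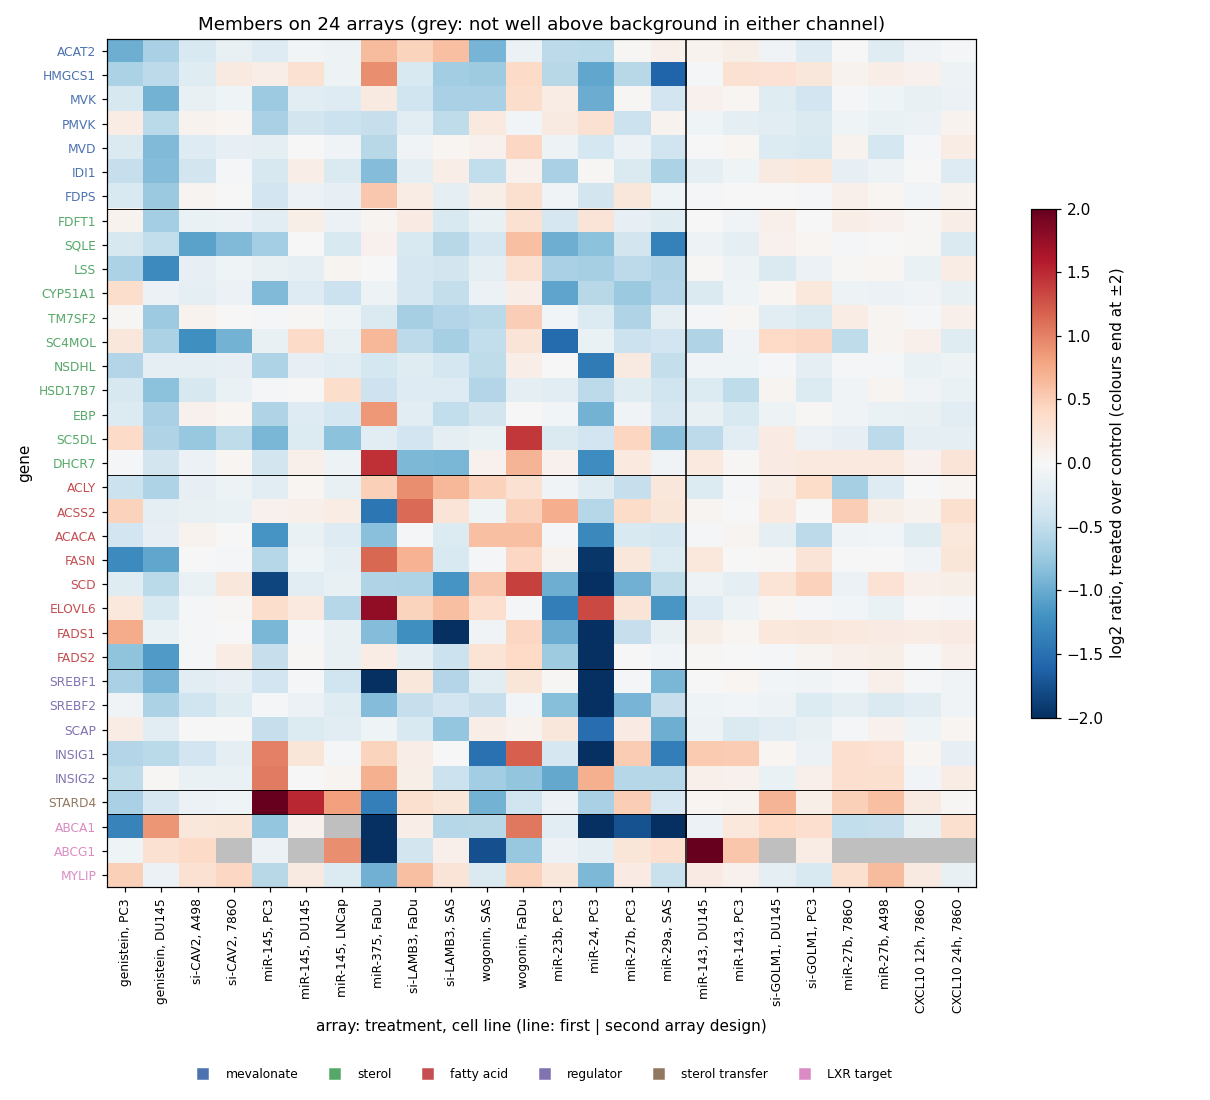
Heat map of the log2 ratio (treated over control) of the 35 members, ordered by role, on the 24 arrays, 1 column per array. The miR-24 array of PC3 has the most values below -1.0, and the 8 columns of the second design are nearly blank.

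In PC3 and DU145, genistein went with lower log2 ratios of enzymes at several points of both routes, FASN, FADS2, LSS and ACAT2 among them. FASN, the fatty acid synthase, had log2 ratios of -1.27 in PC3 and -1.03 in DU145, the lowest average of any member. FADS2, the delta-6 desaturase, had -0.80 and -1.13. LSS, which folds squalene epoxide into lanosterol, had -0.63 and -1.28, and ACAT2, the cytosolic thiolase at the head of the mevalonate route, had -0.98 and -0.64. All 4 were low in both lines.

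Low in both lines were 7 of the 35 members, which added HMGCS1 (-0.64 and -0.53), the synthase that feeds mevalonate, SREBF1 (-0.65 and -0.92) and INSIG1 (-0.59 and -0.54). No member was high in both. Over all genes 6.44% were low in both lines and 8.14% high. The median of the members was -0.39 against 0.03 for all genes, and it was smaller in size with the other treatments of the design subtracted. In PC3 24 members were below 0 and in DU145 32, with medians of all genes of 0.08 and -0.01 in turn. The shares of all genes below 0 are not given here. By role the medians were -0.58 for the mevalonate steps, -0.35 for the sterol steps, -0.34 for the fatty acid steps and -0.35 for the regulators, and the LXR targets, at 0.11, were the role with a median above 0.

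The limma fit asks whether the mean over lines differs from 0, with Benjamini-Hochberg adjustment over all genes. Its spread between lines is pooled over the treatments of a design. With genistein 5 members fell, beside 8.07% of all genes called in either direction. FADS2 fell by 0.97 (SE 0.16, adjusted p = 0.0154), LSS by 0.96 (adjusted p = 0.0223), FASN by 1.15 (SE 0.24, adjusted p = 0.0278), ACAT2 by 0.81 (adjusted p = 0.0421) and ACLY, which makes cytosolic acetyl-CoA from citrate, by 0.52 (adjusted p = 0.0491). Unadjusted, 13 members passed, all of them lower, beside 26.5% of all genes in either direction. No member passed when either line was left out, the smallest adjusted p then being 0.0518 without PC3 and 0.0613 without DU145, and the second probe of LSS read 0.20 in PC3.

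Other steps differed between the lines. SC4MOL, a sterol C4 demethylase, was at 0.22 in PC3 and -0.63 in DU145, and SC5DL, the lathosterol desaturase, at 0.38 and -0.61. FADS1, the delta-5 desaturase, was at 0.74 in PC3 and -0.13 in DU145. ABCA1, which exports cholesterol to apolipoproteins, stood at -1.33 in PC3 and 0.89 in DU145. Of 29 other measured genes of lipid metabolism, SOAT1, which esterifies cholesterol, was the one past 0.5 in both lines (0.53 and 0.70), and none was below -0.5 in both. The 6 genes of the amino acid and endoplasmic reticulum stress response were all high in both lines, DDIT3 at 3.71 and 2.62 and TRIB3 at 3.98 and 2.24, and their part in the result was not tested.

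**Figure D2:**
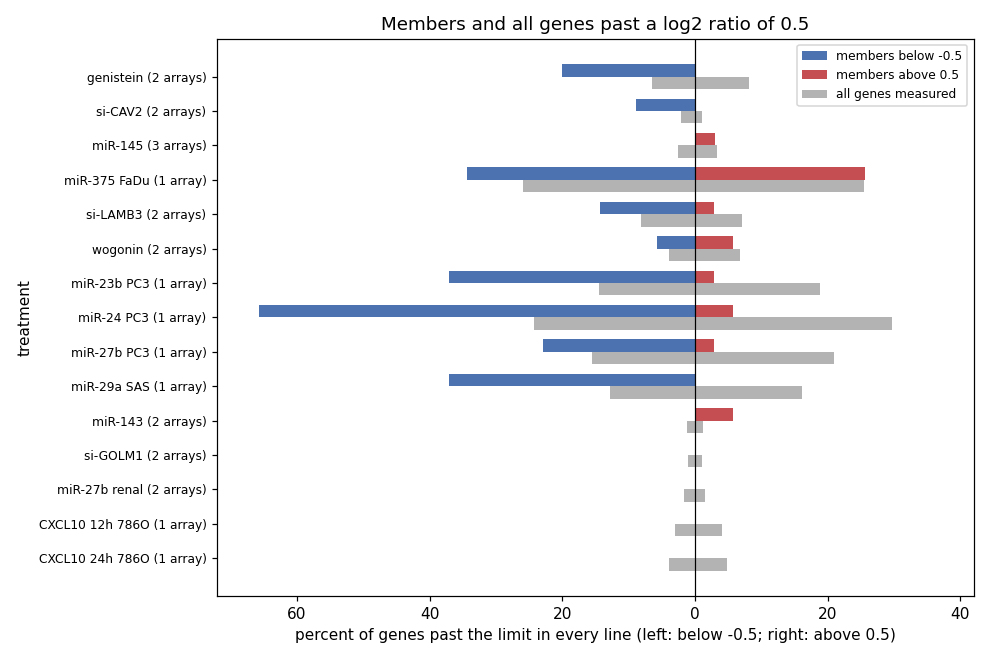
Bars give the percentage of the members and of all genes measured with log2 ratio above 0.5 or below -0.5 in every line, for 15 comparisons. The members' bar below -0.5 is longest for miR-24 in PC3, where 23 of 35 members were low beside 24.3% of all genes.

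The miR-24 array of PC3 held the lowest value among the 24 arrays for SCD, FADS2, FASN and ACACA and for the regulators SREBF1, SREBF2, SCAP and INSIG1. SCD, the delta-9 desaturase that makes oleate, had a log2 ratio of -3.61 (spot error 0.40), 12.2-fold lower than in the control. FADS1 was at -2.23 (error 0.29) and FADS2 at -2.12 (error 0.28), so all 3 desaturases were low by their brightest probes. FASN was at -1.94 and ACACA, the carboxylase that makes malonyl-CoA, at -1.29.

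By their brightest probes all 5 regulators were past 0.5 in size on that array, 4 below 0 and 1 above. Over all genes 24.3% were below -0.5 and 29.8% above 0.5. SREBF1 was at -2.55 (error 0.31), SREBF2 at -2.24 (error 0.29), INSIG1 at -1.99 and the escort SCAP at -1.52. INSIG2 was at 0.72 by its brightest probe and at -0.73 by another probe, so its direction depends on the probe. The second probes of SREBF1 and FADS2 read 0.24 and 0.32, so these low values rest on 1 probe each. ACACA kept its sign with -1.13 on its second probe. SREBF2, SCD and FADS1 have 1 probe each, at chr22:42302199-42302258 on the plus strand, chr10:102123917-102123976 on the plus strand and chr11:61567126-61567185 on the minus strand (hg19, array annotation).

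The sterol steps were low to a smaller degree, with a median of -0.55, and the mevalonate steps had -0.37. The fatty acid genes had -1.61 and the regulators -1.99, with FADS2 and SREBF1 taken by their brightest probes alone. NSDHL, which removes a sterol C4 methyl group as part of a complex, was at -1.41. DHCR7, the last enzyme to cholesterol, was at -1.24 and HMGCS1 at -1.04. IDI1, the isomerase of the mevalonate route, FDFT1 and PMVK were not low, at 0.02, 0.25 and 0.30.

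In all 23 of 35 members were low with miR-24 and 2 were high, beside 24.3% and 29.8% of all genes, and the median was -0.66 against 0.06. Past 1.0 there were 13 low members and 1 high, beside 12.3% and 15.4%. The low counts take in SREBF1 and FADS2, whose second probes were above 0. The high one was ELOVL6, which lengthens palmitate to stearate, at 1.33. ABCA1 was at -2.78, with -1.37 on its second probe. Among other genes of lipid metabolism LPCAT3 (-2.43), which remodels phospholipids, and ACSL3 (-2.0), an acyl-CoA synthetase, were low too, while ELOVL1 was at 1.06. There was 1 array and no test.

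**Figure D3:**
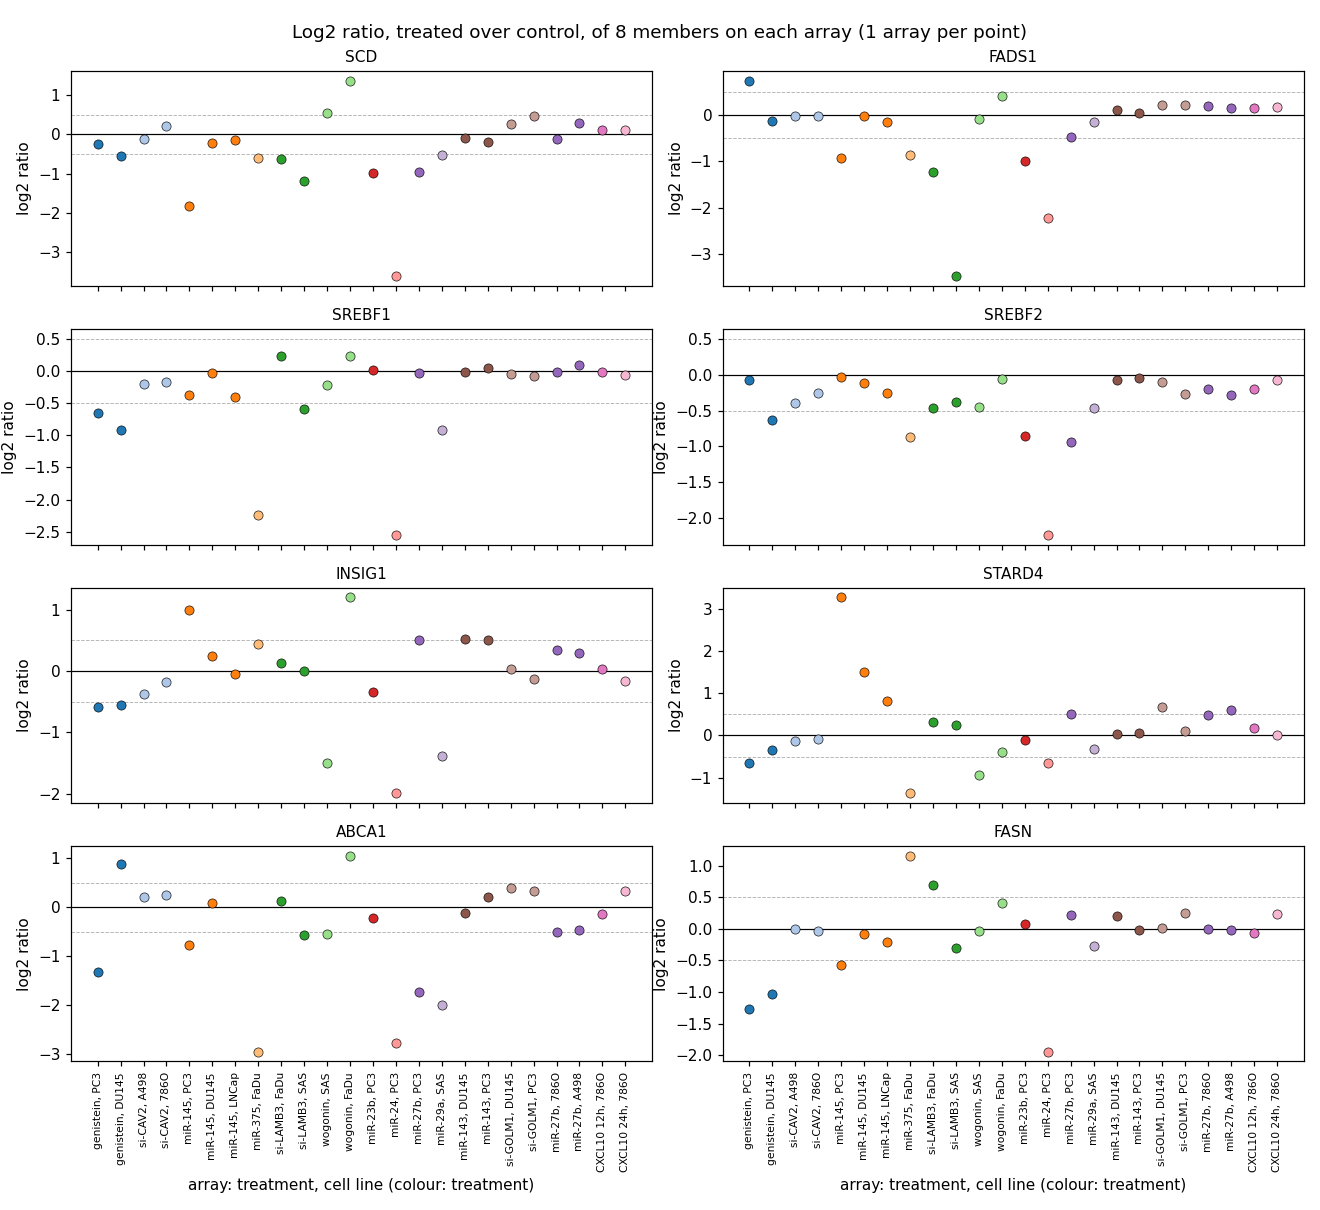
Log2 ratio of 8 members on each of the 24 arrays, with a separate vertical scale in each panel. SCD, SREBF1, SREBF2, FASN and INSIG1 are lowest on the miR-24 array of PC3, and STARD4 is highest on the miR-145 array of PC3.

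On the miR-23b array of PC3 the low members were spread over the mevalonate, sterol and fatty acid steps and the regulators. The mevalonate genes ACAT2, HMGCS1 and IDI1 were at -0.53, -0.55 and -0.66, and LSS and SREBF2 were low too. SC4MOL had a log2 ratio of -1.54, CYP51A1, the lanosterol demethylase, -1.05, and SQLE, the squalene epoxidase, -0.98. ELOVL6 was at -1.38 and INSIG2 at -1.02, with -1.11 on its second probe. The desaturases SCD, FADS1 and FADS2 were at -0.97, -0.99 and -0.72. In all 13 of 35 members were low and 1 high, beside 14.4% and 18.8% of all genes, and the median was -0.22 against 0.05. The high member was ACSS2, the acetyl-CoA synthetase, at 0.73. LBR, a sterol reductase and lamin receptor, was at -2.17. With the mean of the other treatments of the design subtracted from each gene, 5 members were low and 3 high, beside 14% and 16.9% of all genes, so the low share was then that of all genes.

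On the miR-27b array of PC3 8 of 35 members were low and 1 high, beside 15.5% and 21.0% of all genes. ABCA1 was lowest at -1.74, with -0.62 on its second probe. SCD was at -0.97, SREBF2 at -0.94, CYP51A1 at -0.74, TM7SF2, a sterol C14 reductase, at -0.60, INSIG2 at -0.58, HMGCS1 at -0.56 and LSS at -0.52. The median was -0.12 against 0.05, and INSIG1 was the high member at 0.51. With the other treatments subtracted, 2 were low and 5 high, beside 15% and 18.7%.

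miR-27b was also given to the renal lines on the second design, where no member was past the limit in both. Over all genes 1.45% were high and 1.63% low in 786O and A498. ABCA1 was at -0.50 and -0.46, and PPARG, the adipogenic nuclear receptor, was at -1.21 and -1.13 after -1.43 in PC3. STARD4, which moves cholesterol between membranes, was at 0.48 and 0.60. No member passed in the limma fit, beside 0.0332% of all genes; 10 passed without adjustment, beside 15.1%, and the smallest adjusted p was 0.152.

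On the miR-29a array of SAS 13 of 35 members were low and none was high, beside 12.8% and 16.1% of all genes. ABCA1 was at -1.99 (-0.91 on its second probe), HMGCS1 at -1.60 and INSIG1 at -1.39. SQLE had -1.35, ELOVL6 -1.16, SCAP -0.98, SREBF1 -0.92 and SC5DL -0.83, so every role but the sterol transfer gene had a low member. IDI1, LSS, CYP51A1, SCD and INSIG2 lay between -0.51 and -0.64. The median was -0.39 against 0.06, and 30 members were below 0, with no share of all genes below 0 given here. Of the 6 stress genes 5 were above 0.5 and TRIB3 was at -0.66, and their part was not tested. With the other treatments subtracted, 7 members were low and 1 was high, beside 13.2% and 12.3%.

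With miR-375 in FaDu 9 of 35 members were high and 12 low, beside 25.5% and 25.9% of all genes, so the counts were near those of all genes. The median was -0.10 against 0.03, and it changed sign when the other treatments of the design were subtracted. ELOVL6 was at 1.78, DHCR7 at 1.46, FASN at 1.15, HMGCS1 at 0.93, EBP, the sterol isomerase, at 0.86, SC4MOL at 0.67, ACAT2 at 0.64 and FDPS, the farnesyl diphosphate synthase, at 0.53. INSIG2 was at 0.71.

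Low with miR-375 were both SREBP genes, SREBF1 at -2.24 (-0.89 on its second probe) and SREBF2 at -0.87, and all 3 LXR targets. ABCG1, which exports cholesterol to lipoprotein particles, was at -2.56 and MYLIP at -0.96. ABCA1 was not well above background in the treated channel, so it was at least 4.88-fold lower, and its log2 ratio was -0.42 after normexp and loess against -2.95 as deposited. Enzymes of synthesis were on this side too: ACSS2 was at -1.44, IDI1 at -0.87, FADS1 at -0.86, ACACA at -0.84, SCD at -0.61 and MVD, the mevalonate decarboxylase, at -0.56. STARD4 was at -1.37. The 6 stress genes were all low on this array, DDIT3 at -3.72, and their part was not tested.

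In FaDu and SAS with si-LAMB3, a pair of desaturases and 3 late sterol enzymes were low in both lines. FADS1 had log2 ratios of -1.23 in FaDu and -3.48 in SAS, DHCR7 -0.89 and -0.92, and SCD -0.62 and -1.18. TM7SF2 had -0.66 and -0.58, and SC4MOL -0.53 and -0.66. ACLY alone was high in both, at 0.92 and 0.66. That made 5 low members and 1 high of 35, beside 8.1% and 7.15% of all genes, with a median of -0.25 against 0.03. This median changed sign when the other treatments of the design were subtracted.

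Limma called 3 members for si-LAMB3, beside 7.57% of all genes. ACLY rose by 0.79 (SE 0.13, adjusted p = 0.0155), FADS1 fell by 2.35 (SE 0.47, adjusted p = 0.0257) and DHCR7 fell by 0.91 (SE 0.18, adjusted p = 0.0257). Unadjusted, 9 of 35 passed, beside 25.5%. Without SAS no member passed (smallest adjusted p = 0.0824), and without FaDu FADS1 alone did (adjusted p = 0.0139). FASN was at 0.69 in FaDu and -0.30 in SAS, and ACSS2 at 1.13 and 0.26. Of the 6 stress genes 3 were high in both lines, DDIT3 being at 0.41 in FaDu and 2.01 in SAS, and their part was not tested.

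In A498 and 786O with si-CAV2, 3 enzymes of the sterol steps were low and no other member was past 0.5 in both lines. SC4MOL had log2 ratios of -1.23 in A498 and -0.95 in 786O, SQLE -1.07 and -0.88, and SC5DL -0.76 and -0.50. These were 3 of 34 measured members, beside 2.02% of all genes, while none was high, beside 1.1%. The median was -0.12 against 0.02, and it changed sign when the other treatments of the design were subtracted. LSS and CYP51A1, which act between SQLE and SC4MOL, were at -0.16 and -0.19 in A498 and -0.08 and -0.11 in 786O. No member passed in the limma fit, beside 0.0901% of all genes; 2 of 35 passed without adjustment, beside 4.43%, and the smallest adjusted p was 0.363. With arrays weighted by their scatter the fit called SC4MOL, SC5DL, SQLE and SREBF2. The share of all genes called in that weighted fit is not given here. LPIN1, a phosphatidate phosphatase, was low as well (-0.64 and -0.59).

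miR-145 went with high STARD4 in all 3 prostate lines, at 3.26 in PC3, 1.51 in DU145 and 0.82 in LNCap. It was the 1 high member of 33 measured, with none low, beside 3.28% and 2.53% of all genes. Limma gave a mean of 1.86 (SE 0.38, adjusted p = 0.0296), the 1 member called beside 5.48% of all genes, and no member passed without DU145 (smallest adjusted p = 0.0615). Unadjusted, 6 of 35 passed, beside 22.6%. The member median was -0.16 against -0.05, and it changed sign when the other treatments of the design were subtracted. Most of the low values were in PC3, where SCD was at -1.83, ACACA at -1.17, FADS1 at -0.92, SC5DL at -0.91 and CYP51A1 at -0.89, and INSIG1 and INSIG2 were high at 1.0 and 1.03. In DU145 no member was below -0.5 and SCD was at -0.23, and in LNCap SC5DL was lowest among the synthesis genes at -0.82.

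The member median under wogonin was of opposite sign in the lines, -0.22 in SAS and 0.31 in FaDu. SCD (0.53 in SAS and 1.37 in FaDu) and ACACA (0.60 in both) were high, and ABCG1 (-1.76 and -0.75) and INSIG2 (-0.69 and -0.79) were low. These were 2 high and 2 low of 35, beside 6.74% and 3.98% of all genes, with a median of 0.07 for both the members and all genes. The mevalonate genes had a median of -0.49 in SAS and 0.32 in FaDu, HMGCS1 being at -0.71 and 0.39 and ACAT2 at -0.93 and -0.12. INSIG1, itself a sterol-regulated gene, was at -1.49 in SAS and 1.20 in FaDu. No member passed in the limma fit, beside 2.07% of all genes; 6 of 35 passed without adjustment, beside 20.2%, and the smallest adjusted p was 0.108. DDIT3 was at -0.78 in SAS and -3.28 in FaDu, and its part was not tested.

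On the second design the members barely moved. With miR-143 2 of 35 were high by their deposited ratios and none low, beside 1.18% and 1.15% of all genes. INSIG1 was at 0.52 in DU145 and 0.50 in PC3 (adjusted p = 0.135 in the limma fit), and ABCG1 was at 0.55 in PC3 and 2.06 in DU145. The ABCG1 control signal was not well above background in either line. The bound was at least 1.04-fold higher in DU145 and 1.47-fold in PC3, so ABCG1 is not shown to be past 0.5 in DU145. INSIG1 alone was thus shown to be past the limit in both lines. No member passed in limma, beside 0.00553% of all genes, and 4 of 34 passed without adjustment, beside 15.7%.

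With si-GOLM1 none of 34 members was high or low in both lines, beside 1.14% and 1.08% of all genes. STARD4 was at 0.68 in DU145 and 0.11 in PC3, and ACACA at -0.19 and -0.52. No member passed in limma, beside 0.0166% of all genes, where 9 passed without adjustment, beside 18.5%, and the smallest adjusted p was 0.174. With CXCL10 in 786O none of 34 members was past 0.5 at either time. Over all genes 4.1% were high and 2.93% low at 12 h, and 4.88% and 3.95% at 24 h. The member medians were -0.03 and 0.03.

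Across all 24 arrays SREBF2 was the one member on the same side of 0 throughout. Its lowest value was -2.24 (miR-24 in PC3), its median -0.26 and its highest -0.03 (miR-145 in PC3). Of 12675 genes measured on every array, 15 were below 0 on each (0.118%) and 28 above 0 on each. As no dyes were swapped, a dye preference of the SREBF2 probe and lower SREBF2 in treated cells cannot be told apart. NSDHL was below 0 on 22 arrays, HSD17B7 on 21, and CYP51A1 and SC5DL on 20 each. These counts take in values within the spot error, such as -0.009 (error 0.20) for NSDHL with miR-23b in PC3. The share of all genes below 0 on as many arrays is not given here, so these counts are not set against other genes.

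The spread over the arrays differed between members of a role. SCD ran from -3.61 to 1.37 with a median of -0.17, FADS1 from -3.48 to 0.74 with -0.02, and STARD4 from -1.37 to 3.26 with 0.05. INSIG1 ran from -1.99 to 1.20 with 0.01. ABCA1 was measured on 23 arrays and ABCG1 on 17, and the ends of their ranges rest on dim channels (ABCA1 with miR-375 and with wogonin in FaDu, ABCG1 with miR-143 in DU145), so no range is given. Of the mevalonate genes HMGCS1 moved most, from -1.60 to 0.93, and PMVK, the phosphomevalonate kinase, least, from -0.66 to 0.30. Of the sterol genes DHCR7 ranged from -1.24 to 1.46 and FDFT1, the squalene synthase, from -0.69 to 0.31.

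Over the 16 arrays of the first design the log2 ratios of the members were mostly positively correlated with each other, as a description without a test and with no such share for other genes, since arrays share lines, slides and dye orientation. Pearson's r was above 0 for 413 of 528 pairs of members, with a median of 0.23. The closest pairs were ACACA with SCD (0.85), FASN with FDPS (0.84), DHCR7 with EBP (0.83) and FADS2 with FASN (0.83), and the most opposed was ACACA with INSIG2 (-0.77). Against the mean of the other members r was highest for FADS2 (0.79), SCD (0.75) and NSDHL (0.73), and below 0 for INSIG2 (-0.33, with probes that disagreed on the miR-24 array), PMVK (-0.27), ABCG1 (-0.23) and ELOVL6 (-0.20). Over the 8 arrays of the second design, where the values were small, this was not seen. There 288 of 561 pairs were above 0, ACACA with SCD had -0.64, and 9 of 34 members had r above 0 to the mean of the others.

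SREBP proteins bind sterol elements in promoters, usually beside NF-Y and Sp1 boxes, so the promoter windows of the members (250 bases before to 50 after the start, RefSeq, GRCh38.p14) were searched on both strands. Of 35 members 30 had a window. The NF-Y box CCAAT was in 19 of these 30 (63.3%) and in 35.7% of 27305 promoters, the GC box GGGCGG in 28 (93.3%) and 44.6%, and the E-box CACGTG in 5 (16.7%) and 7.43%. The sterol element TCACNCCAC was in 1 member (3.33%) and 1.15% of promoters, and that member was SREBF2. A match is a description of the sequence, and no match says that these letters are not in this window. The stretch of SREBF2 at chr22:41832932-41833031 on the plus strand is shown because it holds the one match, with the element and the reverse of the CCAAT box in capitals. The element starts 133 bases before the start of the gene.
SREBF2 promoter: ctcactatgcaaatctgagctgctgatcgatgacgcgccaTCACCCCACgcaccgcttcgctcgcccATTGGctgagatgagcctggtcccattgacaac

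The level of a member in each line was read from the control channel, as log2 Cy3 signal minus the 75th percentile of the array, and compared only within a gene on the first design. TM7SF2 was spread widest, with 2.74 in LNCap, medians of -0.56 in DU145 and -0.99 in PC3, then -3.03 in SAS and -3.23 in FaDu, and -5.04 in A498 and -5.08 in 786O. The ranges of PC3 (-2.17 to 0.11) and DU145 (-1.51 to 0.38) overlapped, as did those of SAS and FaDu. FADS2 was highest in PC3 (median 4.27, range 3.04 to 4.37), with LNCap at 3.93 and DU145 (2.70 to 4.18) inside or overlapping that range, and lowest in FaDu (0.08). SAS was next at 0.86, and the renal lines lay between at 2.03 for A498 and 2.83 for 786O. FADS2 was thus lowest in both head and neck lines.

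SREBF2 was highest in FaDu (median 2.60), then SAS (1.55), LNCap (0.92), DU145 (0.55), PC3 (0.26, range -0.71 to 0.32), 786O (0.15) and A498 (-0.27), the renal values lying inside the range of PC3. SREBF1 was highest in LNCap (5.20) and FaDu (4.93, range 4.58 to 6.49), which overlapped, and lowest in 786O (1.66), which lay inside the range of DU145 (1.39 to 2.79). SQLE was highest in SAS (4.51) and FaDu (4.20), whose ranges met, and lowest in LNCap (1.95). FDFT1 was lowest in PC3 (0.59), and its next lowest line was 786O (1.15). A498, 786O and LNCap had 1 control array each there, so the spread within them is unknown. For 786O the place in these orders, as the lowest line for TM7SF2 and SREBF1, rests on 1 control-siRNA culture, and its control cultures on the second design differed by more than 2.0 in TM7SF2, SREBF1 and FDFT1, as described next.

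**Figure D4:**
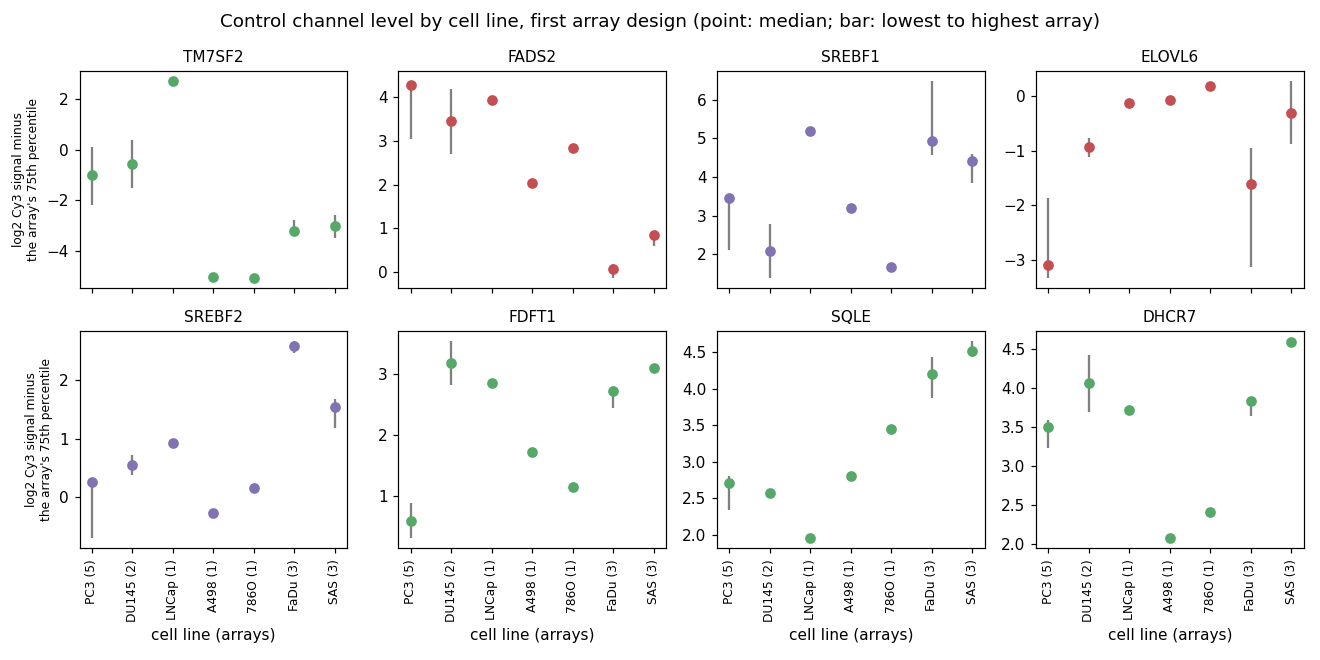
Control-channel level (log2 Cy3 signal minus the array's 75th percentile, first design) of 8 members in 7 lines. Each panel has its own scale and shows the median of each line and the spread of its arrays. TM7SF2 runs from -5.08 in 786O to 2.74 in LNCap, and FADS2 is lowest in FaDu and SAS.

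The largest shift of the member median was found between control cultures of the same line. On the second design 786O was hybridised on 3 arrays of 1 slide, with control-miRNA cells as control on the miR-27b array and untreated cells on both CXCL10 arrays. Of 34 members, 27 were over 1.0 higher on the log2 scale in both untreated controls and none was over 1.0 lower, beside 8.55% and 9.33% of all 15351 genes. The median difference of the members was 1.96 against the 12 h array and 2.13 against the 24 h array, while that of all genes was -0.07 and -0.08.

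All 11 sterol genes were over the limit. SC4MOL was at -2.0 in the control-miRNA cells and at 2.21 and 2.75 in the untreated cells, LSS at 1.25, 4.30 and 5.01, and FDFT1 at 1.59, 4.89 and 5.01. TM7SF2 went from -2.95 to 0.26 and 1.54. Of the mevalonate genes 6 of 7 were over the limit, HMGCS1 being at 0.54 against 3.66 and 3.62, and PMVK was not. Of the fatty acid genes 5 of 8 were over it, FADS2 being at 3.04 against 5.89 and 6.72, and ACLY and ACACA were among the rest.

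INSIG1 differed most among the regulators, at 1.17 against 5.20 and 5.22. SREBF1 (2.42 against 4.88 and 5.06) and SREBF2 (1.22 against 2.72 and 3.18) were over the limit too, and SCAP differed by -0.38 and -0.21. STARD4 and MYLIP were over the limit, and ABCA1 was 0.64 and 0.60 higher. In single pairs of arrays 28 members were over 1.0 higher at 12 h and 27 at 24 h, beside 10.3% and 12.5% of all genes.

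The same count from the treated Cy5 channel was 27 of 34, beside 8.46% of all genes. The CXCL10 ratios themselves were small, so the treated cells of each array stood where their own controls did. Scaled to the array median instead, 30 of 34 were over the limit, beside 17.4% of all genes. Among 20 other pairs of control channels of a line, the member median lay between -0.60 and 0.28, and at most 10 members were over 1.0 higher and 7 lower. Over all genes, too, the pairs of the miR-27b array with the CXCL10 arrays differed most. The SD of their differences was 0.99 and 1.09, against at most 0.81 in the other pairs. The 10 higher were found from the miR-145 to the miR-24 and to the miR-27b array of PC3, beside 7.86% and 7.34% of all genes. The 7 lower were found from the genistein to the miR-145 array of DU145, beside 10.2%. PAX8 was well above background on all 3 arrays. Of the other genes of lipid metabolism 8 of 29 were over the limit, NPC1 and LPCAT3 among them. Of the 6 stress genes 5 were over it, with list medians of 2.0 and 2.47, and their part in the result was not tested. This contrast was chosen after its values were seen. Transfected and untreated controls lay on different arrays, so the kind of control and any other difference between those cultures cannot be told apart.

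**Figure D5:**
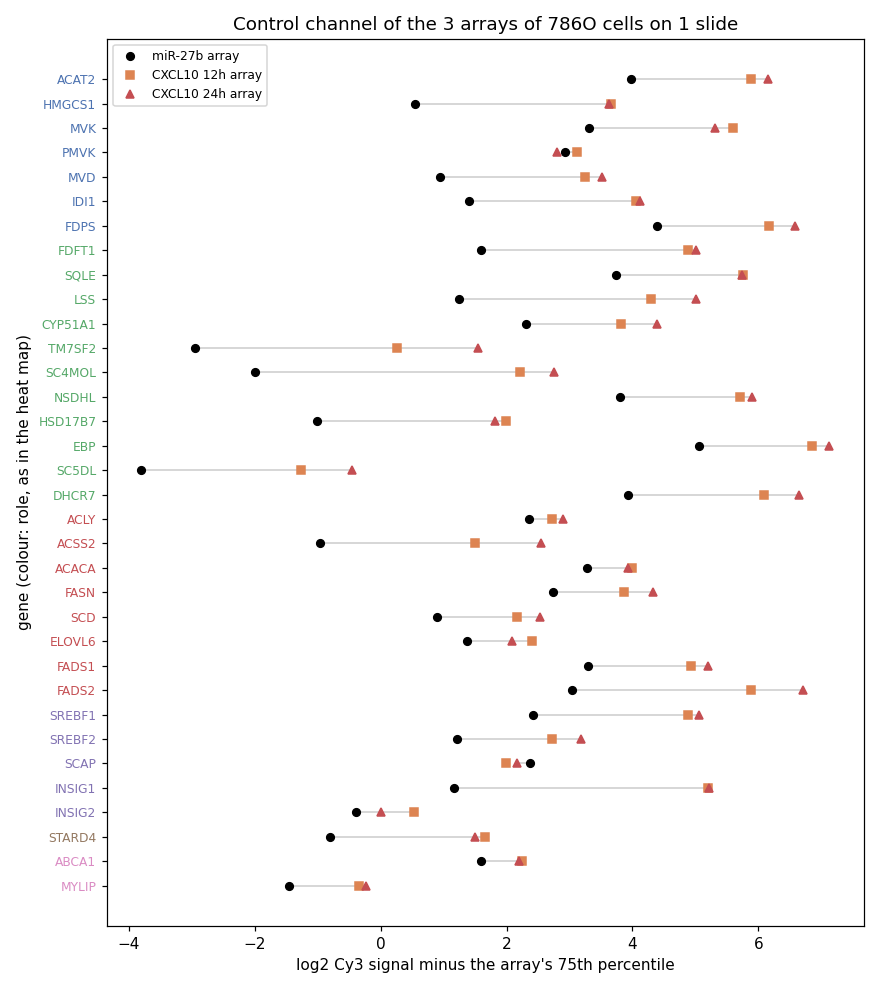
Control-channel level (log2 Cy3 signal minus the array's 75th percentile) of 34 members in 786O on the miR-27b array and both CXCL10 arrays of the second design. The points of both untreated controls lie together, over 1.0 above the control-miRNA point for 27 members.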

How the data were processed

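Total RNA of treated and control cultures was hybridised to 24 Agilent two-colour arrays (3 slides of 8, 2 designs), 1 array per treatment and line. The authors scanned them and ran Feature Extraction 10.7.3.1, which subtracted background and normalised the dyes; the deposited log10 ratio of red over green (treated over control) was multiplied by 3.32 to give log2, and the deposited processed intensity of each channel (Cy3, Cy5) gave the levels. The study states no test for these arrays; probe coordinates in the array annotation are on hg19.

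Control and flagged spots (419 to 614 an array) were left out, spots of a probe averaged, and the brightest probe of a gene kept; 27 of 35 members had 1 probe on the first design and 34 had the same probe on both. A gene was measured where its probe was well above background in at least 1 channel (16238 to 18332 genes an array). The number of arrays limits the precision: the median spot error of the members was 0.20 to 0.22. Levels were log2 Cy3 signal minus the array's 75th percentile. Means over lines were tested against 0 with limma 3.58.1 (lmFit, eBayes, R 4.3.3), 1 fit per design, on genes measured on at least 0.5 of the arrays, with Benjamini-Hochberg adjustment and a threshold of 0.05; the step was tested on simulated data. The p-values rest on a spread between lines, 1 culture each. That spread is pooled over the treatments of a design, so it is not that of a treatment's own lines alone. A dim channel gave a bound, set by the higher of its own signal and the lowest signal well above background. Figures used matplotlib 3.10.9, and tables Python 3.11.15.

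The members, the 30 other lipid genes (29 measured), the 6 stress genes, the 7 line markers and the limits were chosen with earlier results of these data known. Members named with values were chosen mostly from those past the limit in a comparison, the widest in each role, and those whose lines differed. Not every member past the limit is named, and the rest are in the counts alone. Alternatives were normexp (offset 50) with loess, loess alone, median centring, subtraction of other treatments of the design or slide, other filters, the mean of probes, a limit of 1.0, array weights, a treatment's own arrays alone, and leaving out each line.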

Additional observations from a re-analysis of the deposited data

Results flagged for a closer look

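Lines given the same agent had deposited values past 0.5 on opposite sides of 0 for ABCA1 and INSIG1, in one case with a signal too dim to fix the side. With genistein ABCA1, the cholesterol exporter, was at -1.33 (log2 ratio) in PC3 cells and at 0.89 in DU145 cells, and its second probe read -0.76 and 0.56. With wogonin ABCA1 was at -0.55 in SAS and 1.05 in FaDu, where the control signal was not well above background. The bound there is at least 1.02-fold higher, so the FaDu value is not shown to be past 0.5. With wogonin INSIG1, which retains SCAP, was at -1.49 in SAS and 1.20 in FaDu. There was 1 array per line, so these differences were not tested.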

How the results depend on the processing

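Treated and control cultures were paired on each array through its ratio. No pairing between arrays was used, and each treatment and line has 1 array with the same replicate number. All 270 values of the named genes under the alternatives kept their sign. These genes were chosen mostly for large values, so a kept sign was likely beforehand. The 270 do not cover every value printed above. The alternative for probes was their mean, and on the miR-24 array the second probes of SREBF1 and FADS2 had the opposite sign. Of 135 member medians, 118 moved by less than the spread between lines (SD 0.17). With the mean of the other treatments of the design subtracted, the member median became -0.16 for genistein, 0.19 for si-CAV2, 0.0326 for miR-145, 0.15 for miR-375, 0.0314 for si-LAMB3, 0.28 for wogonin, -0.0390 for miR-23b, 0.14 for miR-27b in PC3 and -0.13 for miR-29a. With those on the same slide subtracted it became 0.15 for si-CAV2, 0.10 for miR-145, 0.14 for miR-375, 0.0849 for si-LAMB3, 0.37 for wogonin, 0.0682 for miR-23b, 0.16 for miR-27b in PC3 and -0.14 for miR-29a. The subtraction takes out whatever the treatments share, dye preference or response. The median for wogonin ran from -0.22 to 0.31 when a line was left out. Members called by limma went from 5 to 9 for genistein with normexp, and from 0 to 1 (INSIG1) for miR-143, 1 (MVK) for si-GOLM1 and 2 (ABCA1 and MYLIP) for miR-27b in the renal lines. With array weights genistein had 0 and si-CAV2 4. With a treatment's own arrays alone genistein, miR-145 and si-LAMB3 had 0. Leaving out a line gave 0 in either case for genistein, 0 to 1 for miR-145 and 0 to 1 for si-LAMB3; the lone array of a treatment was then taken to vary like the others. The cause was not tested. Shares of all genes called under these alternatives are not given here, so these counts are not set against other genes. Dim signals limit ABCG1, measured on 17 of 24 arrays, and ABCA1 in FaDu.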
